A study of Mus musculus with 12 samples.

Results

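Quadriceps of Gaa knockout mice that had received a liver-directed gene therapy vector were compared with quadriceps of knockout mice that had received phosphate-buffered saline (PBS), gene by gene, by RNA sequencing. The comparison used 8 of the 12 mice of the series, 4 in each group, and covered 14894 of the 15344 genes listed. All were 6 months old. The methods describe the knockout mice as male and of C57BL/6 background, and the wild-type mice as C57BL/6. By their labels both groups carried a Gaa knockout and differed in the vector. The group labelled AAV had been injected through the tail vein at 2 months of age with 2e12 vector genomes per kg of AAV2/8-LSPhGAApA, which carries human GAA behind a liver-specific promoter, and the group labelled KO had been injected with PBS. Muscle was taken 4 months later. The remaining 4 mice, labelled WT with no treatment named, were in neither group compared, and show where their values lay. No empty or reporter vector was among the groups analysed here, so that an effect of the human enzyme cannot be told apart from an effect of the vector itself.

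Acid alpha-glucosidase, the product of Gaa, breaks down glycogen inside lysosomes, and its loss causes Pompe disease, in which glycogen fills the lysosomes of muscle fibres. A liver that makes the human enzyme secretes it into the blood, from which muscle can take it up through receptors for mannose 6-phosphate. Skeletal muscle mixes slow, oxidative fibres with fast, glycolytic fibres, each built from its own set of myosins, troponins and calcium-handling proteins, and the quadriceps of mice is made mostly of fast fibres. The question asked of these samples was which transcripts of the muscle differ after treatment.

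Values are normalized counts, reads per gene divided by 1 size factor for each library. Log2 fold changes are differences of mean log2(normalized count + 1), the libraries labelled AAV minus those labelled KO, from limma with Benjamini-Hochberg adjustment over all 14894 genes, and are given with their standard error (SE). The threshold for a call was an adjusted p below 0.05 together with a log2 fold change of 1 or more in either direction. Within this text, a gene that rose was called higher in the libraries labelled AAV and a gene that fell was called lower in them.

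Mouse Gaa went against the labels. The libraries labelled KO, the knockout without vector, held 12151, 13074.5, 11936 and 12895 normalized counts of the gene (ENSMUSG00000025579, chr11:119267887-119285454, + strand, GRCm38). Those labelled AAV held 947, 587, 499.6 and 9854, and those labelled WT, in which the gene should be intact, held 343, 14640.2, 324 and 460.3. The gene was thus high in every library labelled KO and in 1 library of each other group, AAV animal 4 and WT animal 2. All 4 libraries labelled AAV were below all 4 labelled KO (log2 fold change -3.28 ± 0.77 (SE), limma adjusted p = 0.016, and p = 0.0286 by an exact permutation of the 8 libraries, two-sided, and no lower p is possible with 4 against 4). Without AAV animal 4 the log2 fold change was -4.26, and with edgeR or DESeq2 on the reads it was -2.09 or -2.08 and did not pass (adjusted p = 0.0986 and 0.0917). The human transgene was not counted by these mouse gene models, and a knockout allele can still be transcribed, so that the counts do not show which animals lacked the enzyme. An exchange of labels or columns cannot be told apart from this with the files used here. The study's other measurements (enzyme activity, glycogen and qPCR) were not used. For this reason every direction below is one between the libraries labelled AAV and the libraries labelled KO.

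The libraries labelled KO resembled each other closely, and those labelled AAV and those labelled WT did not. On the first principal component of the 12 libraries, with 56.1% of the variance, the libraries labelled KO lay between 46.1 and 51.1, whereas AAV animals 1 to 4 lay at -24.9, 1.75, 13.2 and -46.4. The median standard deviation of log2 values over the genes tested was 0.326 in the libraries labelled AAV and 0.189 in those labelled KO, and 75% of the genes had the larger spread under the AAV label. The libraries labelled WT had a median of 0.363 and lay between -60.9 and 14.1 on that component. Reads per library numbered 22122233 to 31974197 under the AAV label and 31225360 to 40846896 under the KO label (p = 0.0571, exact permutation, two-sided). The most abundant gene of all 12 libraries was RP23-81C12.3, annotated as a long noncoding RNA, with 5.61% to 11.47% of the reads. Skeletal muscle fibre markers were high everywhere, with Acta1, the skeletal muscle actin, at 719662 to 1226330 normalized counts under the AAV label and 1181410 to 1285720 under the KO label. In whole tissue such as this, fewer cells of one type and less RNA in each of them cannot be told apart.

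**Figure D1:**
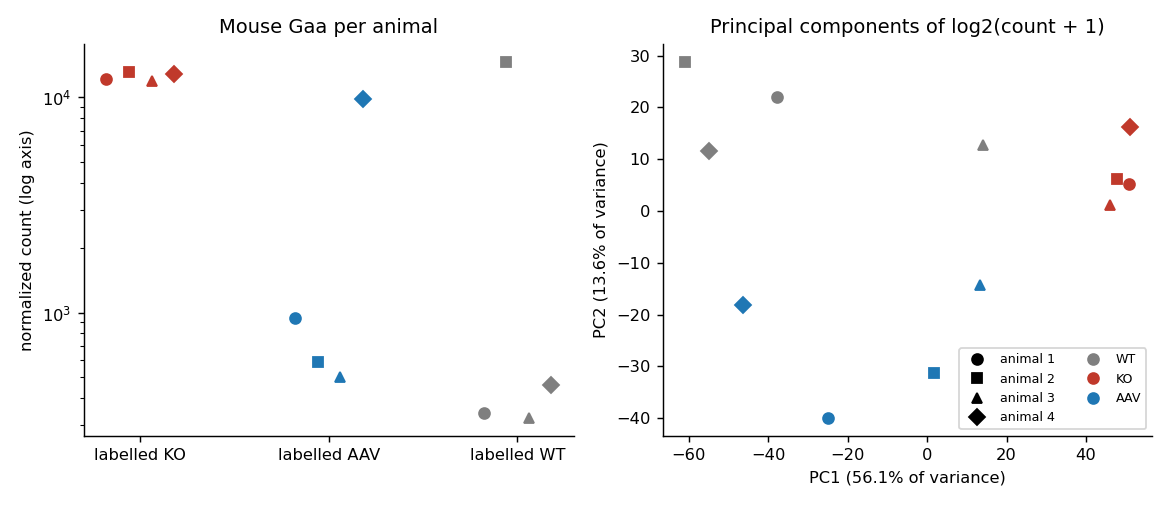
Left, normalized counts of mouse Gaa (log axis) in each animal by label. Right, the first and second principal components of log2(normalized count + 1), with colours for the label and symbols for the animal's number. AAV animal 4, at 9854 counts of Gaa, sits near the 4 libraries labelled KO on the left and farthest from them among the libraries labelled AAV on the right.

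In all, 1338 genes were called. The 809 that rose were 5.43% of the genes tested, and the 529 that fell were 3.55%. At an adjusted p under 0.05 with no condition on the fold, 1911 genes (12.8%) were higher and 1999 (13.4%) lower. Of the genes that rose, 650 were protein coding, and of those that fell, 444. The groups did not overlap for 690 of the genes that rose and 474 of those that fell. Over all genes tested, called or not, every library labelled AAV was above every library labelled KO for 2203 (14.8%) and below for 2346 (15.8%). The median log2 fold change of all genes was 0.04. Scaling to the library totals instead moved this median up by 0.16 to 0.204 and the split of calls to 1058 higher and 352 lower, from 60.5% to 75% higher. Leaving out AAV animal 1 moved the number of rises most, to 431, and leaving out KO animal 4 gave 502 rises and 341 falls. KO animal 1 was the other library whose absence moved a count by over 1.5 times, to 515 rises.

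The largest rise was that of Gdpd3, a lysophospholipase D of the glycerophosphodiester phosphodiesterase family (ENSMUSG00000030703, chr7:126766334-126775649, + strand). It had 6.8, 10.3, 10.9 and 8.8 normalized counts in the libraries labelled KO and 1913, 2049.8, 1929 and 1513 in those labelled AAV. The transcript was almost missing under the KO label and present at a similar level in each animal under the AAV label, as in the libraries labelled WT (1173 to 1462). It had the lowest adjusted p of the comparison (log2 fold change 7.52 ± 0.18 (SE), limma adjusted p = 1.87e-08). Hddc3, which encodes the animal homologue of a bacterial hydrolase of the alarmone ppGpp, gave 105, 114, 127 and 125 against 751, 765, 810.2 and 973 (log2 fold change 2.79 ± 0.13 (SE), limma adjusted p = 3.78e-06). Hal, histidine ammonia-lyase, the first enzyme of histidine breakdown, was at 1.9, 2.6, 0 and 0 against 147.5, 125, 65 and 95.4 (log2 fold change 5.86 ± 0.50 (SE), limma adjusted p = 0.000162). In these genes, too, the animals of a group differed little and the groups lay far apart. Hal and Hddc3 had 72.3 to 114 and 786.5 to 1241 normalized counts under the WT label.

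**Figure D2:**
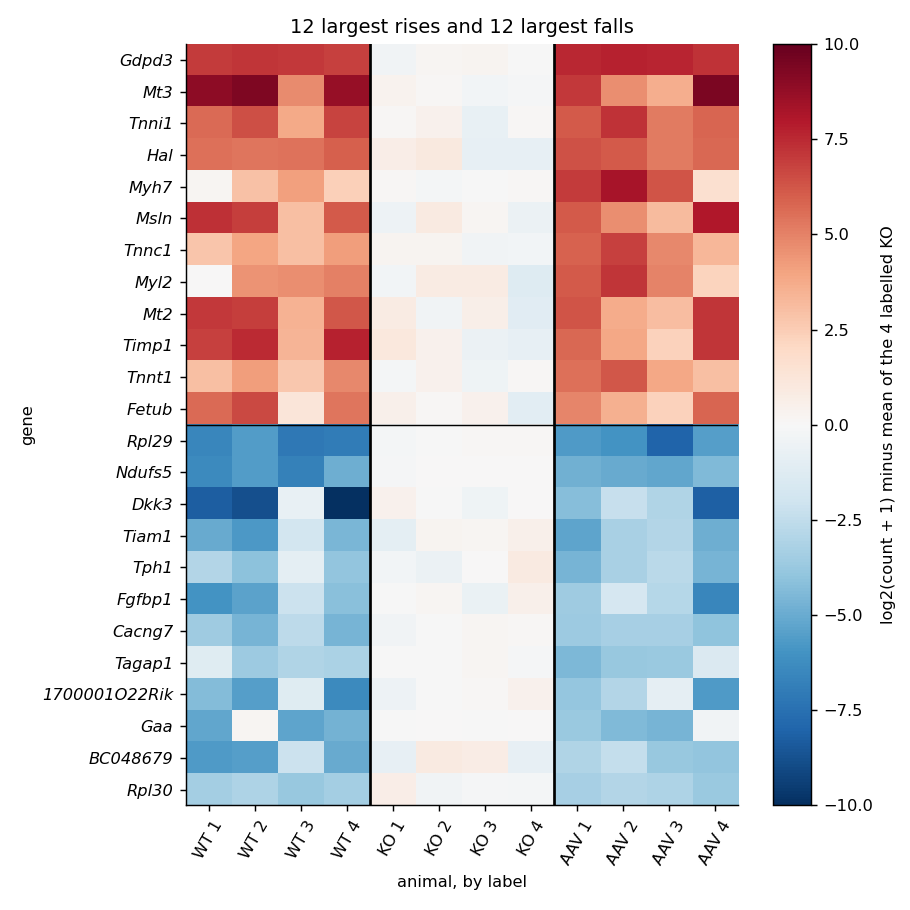
Log2(normalized count + 1) of the 12 largest rises (top) and the 12 largest falls (bottom) in each of the 12 animals, as the difference from the mean of the 4 libraries labelled KO, in colours from blue (lower) to red (higher). Gdpd3, Hal, Rpl29, Ndufs5 and Rpl30 have nearly one shade in all 4 libraries labelled AAV, while Mt3, Myh7, Dkk3 and Gaa differ between these animals.

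Genes of slow muscle fibres had the highest median of the lists compared. Of the 15 members of a list of slow-fibre contractile and calcium-handling genes, 13 (86.7%) rose and 0 fell, beside 5.43% and 3.55% of all genes. The median log2 fold change was 2.85. Myh7, the slow and cardiac beta myosin heavy chain, had 14.5, 11.1, 13.1 and 14.1 normalized counts under the KO label and 1833, 4306, 1095 and 41.3 under the AAV label (log2 fold change 5.78 ± 1.13 (SE), limma adjusted p = 0.00856). All 4 libraries labelled AAV were higher, but AAV animal 4 only by a factor of a few, and without it the log2 fold change was 7.18. The regulatory light chain Myl2 was at 26.1, 56.4, 56.6 and 12.4 against 2293, 4728, 1052 and 158 (log2 fold change 5.13 ± 0.91 (SE), limma adjusted p = 0.00627). For the slow troponins the counts were 12.6, 15.4, 6.5 and 12.4 against 859, 1855.5, 437 and 704 of Tnni1, the inhibitory subunit (log2 fold change 6.10 ± 0.41 (SE), limma adjusted p = 4.77e-05). Those of Tnnc1, the calcium-binding subunit, were 30, 29.9, 18.5 and 20.3 against 1497, 2923, 713 and 251.5 (log2 fold change 5.23 ± 0.61 (SE), limma adjusted p = 0.00115). Tnnt1, the tropomyosin-binding subunit, had 54.1, 82.1, 44.6 and 67.2 against 2769, 4469, 920.0 and 504 (log2 fold change 4.66 ± 0.58 (SE), limma adjusted p = 0.00161). In all 5 genes AAV animal 2 was the highest of its group, as in 10 of the 13 list members that rose, and AAV animal 4 was the lowest in 7 of the 13.

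The other members of the list that rose had smaller log2 fold changes than Myh7. Casq2, the calsequestrin of heart and slow muscle, which binds calcium in the sarcoplasmic reticulum, had 217, 345.5, 249 and 164 against 629.8, 1097, 828 and 1146 (log2 fold change 1.93 ± 0.25 (SE), limma adjusted p = 0.00188). Myl3, the slow essential light chain, was higher in 3 animals only, with 12.6, 5.1, 29.4 and 1.8 against 740.1, 2733, 1334.5 and 20.2 (log2 fold change 5.74 ± 1.34 (SE), limma adjusted p = 0.0153). Sln, sarcolipin, an inhibitor of the calcium pump, was at 34.8, 6.8, 15.2 and 6.2 against 347, 112, 46.1 and 593 (log2 fold change 3.76 ± 0.78 (SE), limma adjusted p = 0.0102), and unlike most of the list was highest in AAV animal 4. Myoz2 (log2 fold change 2.85), Myh7b (2.66), Tpm3 (2.22), Ankrd2 (2.18) and Csrp3 (2.12), which encode a Z-disc protein, a myosin, a tropomyosin and the stretch-responsive proteins Ankrd2 and Csrp3, completed the 13. Myh7b lost its call without KO animal 1, 2 or 3 or AAV animal 1 or 2 (2.19 to 2.76), and Csrp3 without KO animal 1, 3 or 4 or AAV animal 1, 2 or 4 (1.68 to 2.33) and with edgeR. Atp2a2, the calcium pump of slow fibres, had a log2 fold change of 0.78 (limma adjusted p = 0.0502) and Pln, its inhibitor phospholamban, one of -1.05 (limma adjusted p = 0.112), and neither was called. In every alternative, replicates left out included, between 11 and 13 members rose.

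Members of the fast-fibre list moved in both directions. Of 16 members 2 (12.5%) rose and 1 (6.25%) fell, beside 5.43% and 3.55% of all genes. The median was -0.26 (-0.090 with scaling by total reads and -0.42 without AAV animal 3). Myl1, the essential light chain of fast fibres, had 179846, 205278, 156276 and 261408 normalized counts under the KO label and 36098, 59279.7, 96933 and 39482 under the AAV label (log2 fold change -1.88 ± 0.31 (SE), limma adjusted p = 0.00514). Every library labelled AAV was lower than every library labelled KO. The 2 members that rose are the myosins of the faster oxidative and the intermediate fibres. Myh2, the type 2A heavy chain, was at 6101, 11604, 8786 and 2112 against 40833, 72499, 18621 and 14499 (log2 fold change 2.31 ± 0.59 (SE), limma adjusted p = 0.0207) and Myh1, the type 2X heavy chain, at 58194, 66937, 65915 and 28863.5 against 105923, 143016, 87389.6 and 113970 (log2 fold change 1.09 ± 0.28 (SE), limma adjusted p = 0.0218). Myh4, the heavy chain of the fastest type 2B fibres, was at 2213290, 1828690, 1722780 and 1978490 against 1070150, 1076730, 1645110 and 871578, below the KO label in each animal but not called (log2 fold change -0.77 ± 0.36 (SE), limma adjusted p = 0.132). Myh2 was not called without KO animal 1 (log2 fold change 2.32) or without AAV animal 1 (2.16), and Myh1 not without KO animal 4, AAV animal 1 or AAV animal 2 (0.80 to 1.11). The heavy chains lie side by side on chromosome 11 and are near-identical over long stretches. Only reads with a single location were kept, so that reads of these stretches can be missing from their counts.

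Metallothioneins, small proteins that bind zinc and copper and whose genes respond to metals and glucocorticoids, rose by different amounts in different animals. Mt2 had 277, 121, 228 and 70.7 normalized counts under the KO label and 12217, 1995.5, 1309.7 and 21438 under the AAV label (log2 fold change 5.06 ± 0.84 (SE), limma adjusted p = 0.00503). Mt1 was at 420.3, 386.5, 603 and 296 against 11082, 1823, 1434 and 20094 (log2 fold change 3.57 ± 0.75 (SE), limma adjusted p = 0.0108), and Mt3, known best from brain, at 32.9, 27.4, 20.7 and 23.9 against 3529.6, 679, 339 and 17970.4 (log2 fold change 6.19 ± 1.0 (SE), limma adjusted p = 0.00472). Every library labelled AAV was above every library labelled KO for each of the 3 genes. Within the AAV label animal 4 was highest and animal 1 next, and animal 3 was lowest. Without AAV animal 4 the log2 fold changes were 4.37 for Mt2, 2.89 for Mt1 and 5.12 for Mt3, and all were still called. Of the zinc transporters and the zinc-sensing factor Mtf1 listed beside Mt1 and Mt2, none of 6 was called, and Mtf1 itself had a log2 fold change of -0.11 (limma adjusted p = 0.451, 0.059 with scaling by total reads).

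The 3 metallothionein genes lie in one cluster on mouse chromosome 8, and their upstream sequences are shown because these genes moved together. The 250 bases before the start of each gene (RefSeq, GRCm38.p6, + strand) were searched on both strands for the cores of the metal response element, TGCACNC and TGCGCNC, where N is any base, and matches are in capitals.
Mt1, chr8:94178839-94179088: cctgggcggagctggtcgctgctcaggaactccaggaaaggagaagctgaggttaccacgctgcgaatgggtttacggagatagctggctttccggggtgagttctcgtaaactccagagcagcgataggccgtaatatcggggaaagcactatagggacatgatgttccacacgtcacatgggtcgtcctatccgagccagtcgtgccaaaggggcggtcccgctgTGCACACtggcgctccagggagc
Mt2, chr8:94172368-94172617: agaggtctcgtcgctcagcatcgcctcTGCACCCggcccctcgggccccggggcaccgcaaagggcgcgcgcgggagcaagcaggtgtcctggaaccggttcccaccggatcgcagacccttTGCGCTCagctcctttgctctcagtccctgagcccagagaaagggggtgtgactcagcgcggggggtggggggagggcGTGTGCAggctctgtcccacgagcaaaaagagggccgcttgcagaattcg
Mt3, chr8:94152357-94152606: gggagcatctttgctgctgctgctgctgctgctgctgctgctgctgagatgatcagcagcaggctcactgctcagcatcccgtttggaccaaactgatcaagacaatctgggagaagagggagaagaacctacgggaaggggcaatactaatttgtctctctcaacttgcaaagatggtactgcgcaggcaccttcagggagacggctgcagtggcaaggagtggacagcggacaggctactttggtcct
Mt1 held 1 match, Mt2 held 3, of which 1 was on the reverse strand, and Mt3 held 0. GENCODE M21 starts Mt1 at 94179082 and Mt2 at 94172664, so that their windows do not end at those starts. The matches are those of these windows and not of the whole promoters. Of 32851 promoter windows of this length 21.4% held at least 1 match and 1.26% held 3 or more. The letters alone do not show a bound site, and no match says only that these letters are not in this window.

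A further group of genes followed the same order of animals as the metallothioneins, with AAV animal 4 highest and AAV animal 3 lowest. Timp1, an inhibitor of matrix metalloproteinases, had 12.6, 7.7, 3.3 and 2.7 normalized counts under the KO label and 345, 97.7, 30.7 and 937 under the AAV label (log2 fold change 4.77 ± 0.91 (SE), limma adjusted p = 0.00795). Msln, mesothelin, a surface protein of mesothelial cells, was at 1, 4.3, 2.2 and 0.9 against 198.5, 69.5, 24.8 and 713 (log2 fold change 5.50 ± 0.87 (SE), limma adjusted p = 0.00448). Fetub, a fetuin known as a secreted protease inhibitor of liver, was at 4.8, 3.4, 4.4 and 0.9 against 119.9, 47.3, 18.9 and 228 (log2 fold change 4.16 ± 0.70 (SE), limma adjusted p = 0.00535). Under the WT label animal 3 was the lowest of its group in all 3 genes, at 67.4, 21.9 and 8.1, and the other animals were at 752 or more, 202 or more and 165 or more.

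Genes that muscle switches on after loss of its nerve or during repair were partly among those with this order. Of the acetylcholine receptor and neuromuscular junction list 1 of 12 was called, Chrnd, the delta subunit of the receptor, at 94.7, 61.6, 68.5 and 63.7 against 551, 213, 100.4 and 1655 (log2 fold change 2.38 ± 0.69 (SE), limma adjusted p = 0.0318). A further 3, Chrnb1, Dok7 and Agrn, were higher at an adjusted p under 0.05 with smaller folds (log2 fold changes 0.83, 0.71 and 0.58), and the list's median was 0.75. The share called higher was 8.33%, beside 5.43% of all genes. At an adjusted p under 0.05, 33.3% of the list were higher and 0 lower, beside 12.8% and 13.4% of all genes. Chrnd was not called when KO animal 1, 2, 3 or 4 or AAV animal 1 was left out (2.20 to 2.52, adjusted p 0.0616 to 0.0887). Among 16 genes of the atrophy and denervation response 3 (18.8%) rose and 1 (6.25%) fell, beside 5.43% and 3.55% of all genes. Over the alternatives 2 to 6 rose. Those that rose were Gadd45a, a stress-induced protein of denervated muscle, at 301.5, 333.5, 387 and 461.5 against 2496, 698, 771 and 1747 (log2 fold change 1.75 ± 0.37 (SE), limma adjusted p = 0.0111), and the transcription factor Runx1 at 85, 66.7, 85.9 and 60.1 against 502, 188, 115 and 551.5 (log2 fold change 1.90 ± 0.45 (SE), limma adjusted p = 0.0163). The third was Sprr1a, a small proline-rich protein known from injured nerve and muscle, which went from 0, 0, 0 and 0.9 to 84.1, 9.1, 3.5 and 151 (log2 fold change 4.57 ± 1.01 (SE), limma adjusted p = 0.0133, a fold that depends on the added 1 because the gene is near 0 under the KO label). Of these 3, Gadd45a was highest in AAV animal 1 and the others in AAV animal 4. The ubiquitin ligases of atrophy were not called, with log2 fold changes of -0.73 for Fbxo32 (limma adjusted p = 0.0403) and 0.47 for Trim63 (limma adjusted p = 0.14).

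The member that fell was Mstn, myostatin, a secreted inhibitor of muscle growth. It had 2191, 1945.5, 2639.8 and 3610.1 normalized counts under the KO label and 321, 492, 1190.5 and 59.7 under the AAV label (log2 fold change -2.95 ± 0.72 (SE), limma adjusted p = 0.0176). Here AAV animal 3 was nearest to the KO label and AAV animal 4 farthest, as in Mt2. Without KO animal 4 the adjusted p was 0.0518 (log2 fold change -2.78), and without AAV animal 4 the fall was smaller, at -2.14, and still called.

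Of 14 myogenic regulators and developmental myosins 3 rose and 1 fell, beside 5.43% and 3.55% of all genes. The perinatal myosin Myh8 was at 312, 227, 215 and 221 against 777, 495, 495 and 1443 (log2 fold change 1.58 ± 0.31 (SE), limma adjusted p = 0.00878), and the embryonic myosin Myh3 at 116, 77, 65.3 and 72.5 against 601, 350.4, 89.8 and 984 (log2 fold change 2.18 ± 0.60 (SE), limma adjusted p = 0.0266). Tmem8c, myomaker, which fuses myoblasts, was at 4.8, 1.7, 2.2 and 0.9 against 99.2, 27.2, 4.7 and 213 (log2 fold change 3.79 ± 0.96 (SE), limma adjusted p = 0.0201). For Myh3 and Tmem8c AAV animal 3 fell within the range of the libraries labelled KO. Pax3, a regulator of muscle progenitors, fell from 78.3, 88.9, 109.9 and 145 to 46.9, 53.4, 21.3 and 45.9 (log2 fold change -1.35 ± 0.31 (SE), limma adjusted p = 0.0149). Tmem8c was not called without KO animal 2, KO animal 4 or AAV animal 1 (3.38 to 3.72), nor Myh3 without KO animal 2, 3 or 4 or AAV animal 1 (1.95 to 2.16). Among imprinted growth genes 2 of 10 (20%) rose, beside 5.43% of all genes. H19, a long noncoding RNA of fetal growth, was at 6573, 8341, 8931 and 5902 against 45094, 23561, 13645 and 62771 (log2 fold change 2.07 ± 0.41 (SE), limma adjusted p = 0.00839). Cdkn1c, a cell cycle inhibitor, was at 375, 389, 506 and 457 against 1284.5, 903, 1116 and 437 (log2 fold change 1.02 ± 0.29 (SE), limma adjusted p = 0.0309), with AAV animal 4 inside the KO range, and 6 of the 8 fits that left out 1 animal did not call it (all but those without KO animal 3 or AAV animal 4, log2 fold change 0.83 to 1.05).

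**Figure D3:**
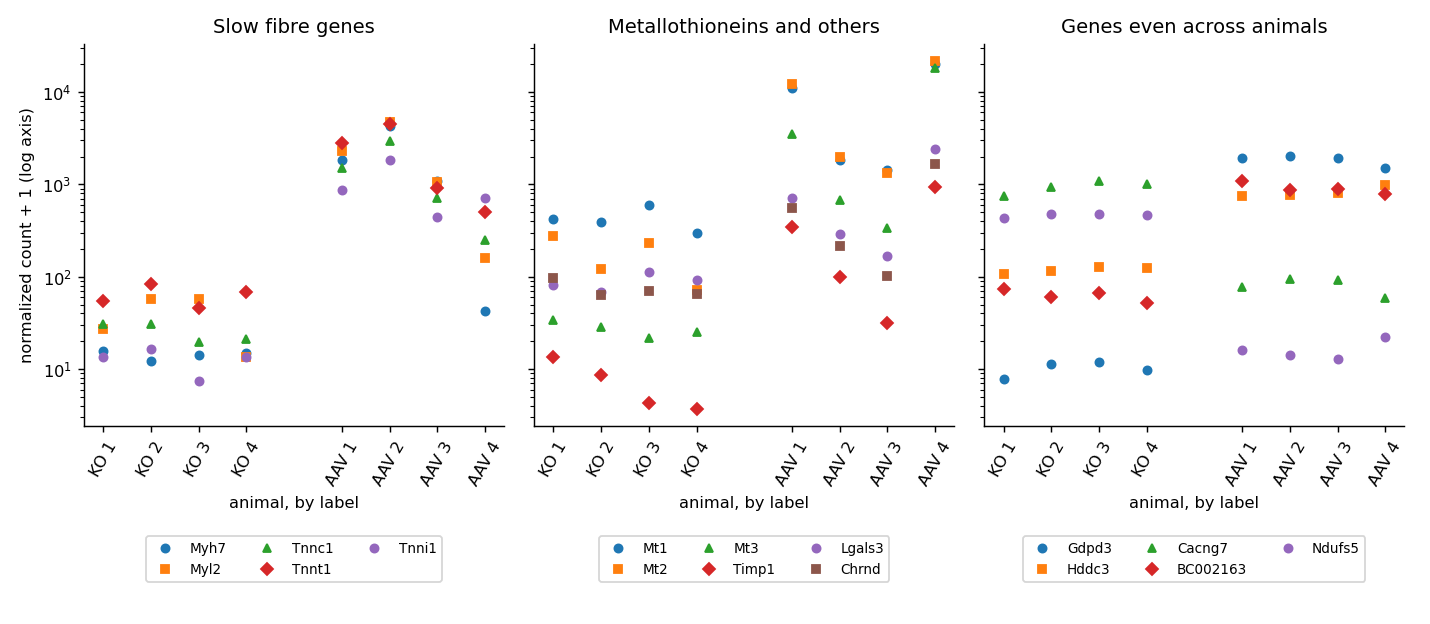
Normalized count + 1 (log axis) of genes in each animal of the libraries labelled KO and AAV. The slow-fibre genes (left) are highest in AAV animal 2, the metallothioneins and the genes drawn with them (middle) in AAV animal 4, and the genes on the right keep nearly one level within each label.

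Among the largest falls were signalling genes with a wide spread between animals. Dkk3, a secreted member of the Dickkopf family of Wnt modulators, had 7805, 5594, 4285.5 and 5759 normalized counts under the KO label and 295, 1161, 701.5 and 19.3 under the AAV label (log2 fold change -4.44 ± 1.02 (SE), limma adjusted p = 0.0146). Tiam1, an exchange factor that activates Rac1, was at 379, 866, 844 and 1020.4 against 17.9, 76.5, 93.3 and 23.9 (log2 fold change -4.08 ± 0.52 (SE), limma adjusted p = 0.00179). Fgfbp1, which releases fibroblast growth factors from the matrix, was at 165, 200.1, 109.9 and 242 against 13.8, 52.4, 23.6 and 0.9 (log2 fold change -3.64 ± 0.83 (SE), limma adjusted p = 0.0144). All libraries labelled AAV were lower in each gene, AAV animals 1 and 4 the most for Dkk3 and Tiam1. With all 12 libraries in 1 fit Dkk3 did not pass, and without AAV animal 4 its log2 fold change was -3.20 and that of Fgfbp1 -2.69.

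Tph1, the tryptophan hydroxylase that starts serotonin synthesis outside the brain, fell from 74.4, 59.9, 94.6 and 169.8 to 2.8, 9.1, 13 and 2.8 (log2 fold change -3.80 ± 0.50 (SE), limma adjusted p = 0.00194). The less known genes 1700001O22Rik, with 916, 1296, 1389 and 1763 against 88.2, 166, 705 and 24.8 (log2 fold change -3.35 ± 0.79 (SE), limma adjusted p = 0.0157), and BC048679, with 54.1, 182, 165 and 53.1 against 11, 18.1, 5.9 and 5.5 (log2 fold change -3.28 ± 0.51 (SE), limma adjusted p = 0.00426), also fell. AAV animal 3 was the least lowered for Tph1 and 1700001O22Rik, and without it the log2 fold change of 1700001O22Rik was -4.17. Cacng7, a gamma subunit of the voltage-gated calcium channel family, was even across animals, at 745, 929.6, 1077 and 1017 under the KO label and 75.8, 92.6, 92.1 and 57.8 under the AAV label (log2 fold change -3.56 ± 0.18 (SE), limma adjusted p = 8.16e-06). Its counts differed little within a label and about 12-fold between the labels, and under the WT label they were 36.1 to 150.2. Of 20 genes of calcium channels and excitation-contraction coupling, 1 other was called, Cacng1, the gamma subunit of the muscle channel, which rose from 11933, 10496, 10752 and 11227 to 28408, 15480.4, 17938 and 33478 (log2 fold change 1.03 ± 0.23 (SE), limma adjusted p = 0.0129). Cacng1 was not called without AAV animal 1 (0.92) or AAV animal 4 (0.84). With Cacng7, 1 of the list rose and 1 fell (5% each), beside 5.43% and 3.55% of all genes. The list had 5 members higher and 5 lower (25% each) at an adjusted p under 0.05, beside 12.8% and 13.4% of all genes. Its median was -0.15 (0.015 with scaling by total reads).

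Among enzymes and regulators of cytosolic glycogen 1 gene was called. Of 19 genes 0 rose and 1 (5.26%) fell, beside 5.43% and 3.55% of all genes. Over the alternatives 0 to 5 fell, with 0 without AAV animal 4. In the fit itself 6 were lower and 0 higher at an adjusted p under 0.05 (13.4% and 12.8% of all genes), with a median of -0.49 (-0.33 with scaling by total reads). The called gene was Ppp1r3a, which targets protein phosphatase 1 to glycogen in muscle, with 10967, 9747, 11385 and 12841 normalized counts under the KO label and 5291, 6967, 5332 and 2581.5 under the AAV label (log2 fold change -1.24 ± 0.26 (SE), limma adjusted p = 0.0108). No library labelled AAV reached the KO range. It stood at -0.94 without AAV animal 4, and neither there nor after a GC trend was removed did it reach the fold of a call. Among the others with an adjusted p under 0.05 were the phosphorylase kinase subunits Phka1 (log2 fold change -0.86) and Phkb (-0.88), the kinase Gsk3b (-0.75) and the glycogen primer Gyg (-0.74). Glycogen synthase Gys1 and muscle phosphorylase Pygm had log2 fold changes of 0.21 (limma adjusted p = 0.175) and -0.62 (limma adjusted p = 0.11).

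In glycolysis 3 of 17 genes (17.6%) rose and 1 (5.88%) fell, beside 5.43% and 3.55% of all genes, around a median of -0.054 (0.11 with scaling by total reads). Pfkfb3, which makes the fructose 2,6-bisphosphate that activates phosphofructokinase, fell from 19652, 12297, 12551 and 13758 to 1459.5, 2705, 7771 and 3032 (log2 fold change -2.20 ± 0.41 (SE), limma adjusted p = 0.00747). The genes that rose are forms less typical of fast muscle. Slc2a1, the basal glucose transporter GLUT1, was at 166, 168.5, 186 and 223 against 754, 482, 255 and 1137 (log2 fold change 1.62 ± 0.38 (SE), limma adjusted p = 0.0152), and Ldhb, the lactate dehydrogenase subunit of oxidative tissue, at 632, 1246, 1149.7 and 488 against 3592, 6111, 1725 and 1814 (log2 fold change 1.82 ± 0.43 (SE), limma adjusted p = 0.0159). Hk1, the housekeeping hexokinase, was at 197, 240.3, 263 and 179 against 599.5, 338, 306 and 1631 (log2 fold change 1.37 ± 0.45 (SE), limma adjusted p = 0.0473), but leaving out any of KO animals 1 to 4, AAV animal 1 or AAV animal 4 ended its call (0.86 to 1.46, adjusted p 0.0332 to 0.111). The muscle transporter Slc2a4 (GLUT4) had a log2 fold change of -0.27 (limma adjusted p = 0.251).

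Of 17 genes of insulin and growth factor signalling 1 rose and 1 fell (5.88% each), beside 5.43% and 3.55% of all genes. At an adjusted p under 0.05, 7 were lower against 1 higher (13.4% and 12.8% of all genes). The median was -0.37 (-0.20 with scaling by total reads). Tbc1d4, the Akt substrate that holds GLUT4 vesicles inside the fibre, fell from 1147, 1253, 1337 and 1187.5 to 573, 564, 595 and 522 (log2 fold change -1.12 ± 0.10 (SE), limma adjusted p = 0.000196), evenly in all 4 animals. With scaling by total reads its log2 fold change was -0.96, short of a call. Pak1, a kinase downstream of Rac1, rose from 894, 696, 605 and 622.5 to 1432, 1044, 1813 and 1760.2 (log2 fold change 1.09 ± 0.19 (SE), limma adjusted p = 0.00631), a difference of 0.99 without AAV animal 3. The others below an adjusted p of 0.05 were Igf1 (log2 fold change -0.92), Mtor (-0.81), Akt2 (-0.77), the insulin receptor Insr (-0.73), its substrate Irs1 (-0.71) and the kinase Pdpk1 (-0.52).

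Few lysosomal genes were called. Of 34 hydrolases and membrane proteins 2 (5.88%) rose and 0 fell, near the 5.43% of all genes for rises. Of these genes 4 were higher and 1 lower at an adjusted p under 0.05 (12.8% and 13.4% of all genes), and the median was 0.065 (-0.055 without AAV animal 4). Ppt1, which removes palmitate from proteins, was at 266, 292.5, 338 and 299.7 against 751, 694, 549 and 956 (log2 fold change 1.28 ± 0.17 (SE), limma adjusted p = 0.00196), and Lgmn, the protease legumain, at 560.4, 616, 593 and 660.5 against 1862, 1063, 817 and 4465.5 (log2 fold change 1.43 ± 0.43 (SE), limma adjusted p = 0.0348). Both were highest in AAV animal 4. Leaving out any of KO animals 1 to 4, AAV animal 1 or AAV animal 4 ended the call of Lgmn (0.95 to 1.48). The cathepsins Ctsa and Ctsb had log2 fold changes of 0.62 (limma adjusted p = 0.00919) and 0.59 (limma adjusted p = 0.0231), and the membrane proteins Lamp1 and Lamp2 of -0.028 (limma adjusted p = 0.883, 0.14 with scaling by total reads) and -0.21 (limma adjusted p = 0.418, 0.11 after a GC trend was removed).

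Among 9 genes of lysosomal enzyme sorting and uptake 0 rose and 1 (11.1%) fell, beside 5.43% and 3.55% of all genes. At an adjusted p under 0.05, 0 were higher and 2 (22.2%) lower, beside 12.8% and 13.4% of all genes. Sort1, sortilin, a sorting receptor, fell from 6547, 6119, 5277 and 6582 to 2787, 2628, 3709.5 and 2791 (log2 fold change -1.05 ± 0.13 (SE), limma adjusted p = 0.00169) and was at -0.99 without AAV animal 2 and at -0.88 with scaling by total reads. Igf2r, the large mannose 6-phosphate receptor that takes up circulating enzyme, was at 2692, 2342, 2266 and 2567 against 1432, 1934, 1926 and 2475 (log2 fold change -0.37 ± 0.16 (SE), limma adjusted p = 0.105) and was not called. Of 28 genes of autophagy and its control none was called, 3 were higher and 6 lower at an adjusted p under 0.05 (12.8% and 13.4% of all genes), and the median was -0.082 (0.083 with scaling by total reads). The autophagy receptor Sqstm1 had 21208, 22719, 20355 and 21694 against 24385, 21912, 22884 and 31951 (log2 fold change 0.22 ± 0.14 (SE), limma adjusted p = 0.264). Map1lc3a, a gene of the LC3 family that coats autophagosomes, was at 7035, 6736, 7261 and 6333.5 against 8527, 8477, 8189 and 15043, with AAV animal 4 far above its group (log2 fold change 0.51 ± 0.19 (SE), limma adjusted p = 0.0706). For COPI and Golgi retrieval none of 18 was called, with 6 (33.3%) lower and 1 (5.56%) higher at an adjusted p under 0.05, beside 13.4% and 12.8% of all genes. The GTPase Arf1 was at -0.46 (limma adjusted p = 0.0303) and the coat subunit Copa at -0.13 (limma adjusted p = 0.325, 0.034 with scaling by total reads).

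Genes of the respiratory chain lie in the nucleus and in the mitochondrial genome, and the groups were counted separately. Of 82 nuclear subunits 36 were higher and 2 lower at an adjusted p under 0.05 (12.8% and 13.4% of all genes), with a median of 0.36, but with the fold of a call 2 rose and 1 fell, beside 5.43% and 3.55% of all genes. Cox6a1, a cytochrome oxidase subunit, was at 217, 253, 336 and 298 against 735, 436, 535 and 606 (log2 fold change 1.06 ± 0.19 (SE), limma adjusted p = 0.00638), and Cox5b, another, at 586.5, 782, 742 and 1379 against 3702, 1177, 1684 and 1306 (log2 fold change 1.09 ± 0.36 (SE), limma adjusted p = 0.05, just under the threshold). Cox6a1 was not called without KO animal 1 (0.95) or AAV animal 1 (0.93), nor Cox5b without KO animals 1, 2 or 3 or AAV animals 1 or 3 (0.73 to 1.11), and the groups overlapped for Cox5b. The member that fell, Ndufs5, is described with its near-identical copy. Of 7 proteins encoded in mitochondria 0 rose and 3 (42.9%) fell, beside 5.43% and 3.55% of all genes. Their median was -0.75 (-0.40 after a GC trend was removed). The complex I subunits mt-Nd5, at 105798, 116200, 125447 and 121036 against 49777, 55909, 47781 and 19947 (log2 fold change -1.53 ± 0.30 (SE), limma adjusted p = 0.00817), and mt-Nd2, at 248134, 272502, 260208 and 251609 against 124214, 165689, 114593 and 46017 (log2 fold change -1.34 ± 0.35 (SE), limma adjusted p = 0.0221), were lowest in AAV animal 4. So was the oxidase subunit mt-Co1, at 359804, 398356, 384580 and 370357 against 186522, 244895, 217255 and 86221 (log2 fold change -1.14 ± 0.32 (SE), limma adjusted p = 0.0281).

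Without AAV animal 4 the 3 log2 fold changes of mt-Nd5, mt-Nd2 and mt-Co1 were -1.20, -0.95 and -0.81, and after a GC trend was removed 1 of the list was called. The calls of mt-Nd2 also ended without KO animal 1, 2 or 4 and that of mt-Co1 without any of KO animals 1 to 4 or AAV animal 1 (-1.36 to -0.95 and -1.19 to -0.81). Reads of these genes that also match mitochondrial copies in the nuclear genome were not kept, so that their counts are uncertain. Of 28 genes of fatty acid uptake and oxidation none was called, and 6 were higher and 0 lower at an adjusted p under 0.05 (12.8% and 13.4% of all genes). Lpl, lipoprotein lipase, was at 9707.5, 14459.9, 20798 and 8076 against 40855, 50366, 15332 and 11413.5 (log2 fold change 0.98 ± 0.48 (SE), limma adjusted p = 0.147), high in AAV animals 1 and 2 and inside the KO range in animals 3 and 4. Pdk4, the kinase that turns off pyruvate oxidation, was at 11262, 11652, 6484 and 6753 against 12407, 27432, 13188 and 14719 (log2 fold change 0.88 ± 0.28 (SE), limma adjusted p = 0.0454).

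Few cytosolic ribosomal proteins were called. Of 82 genes 21 were higher and 5 lower at an adjusted p under 0.05 (12.8% and 13.4% of all genes), with a median of 0.29. With the fold of a call 0 rose and 4 (4.88%) fell, beside 5.43% and 3.55% of all genes. Rpl29 had 218, 252, 279.5 and 279 normalized counts under the KO label and 4.1, 3, 0 and 4.6 under the AAV label (log2 fold change -6.29 ± 0.49 (SE), limma adjusted p = 9.53e-05), and Rpl30 928.5, 472, 529 and 515 against 57.9, 75.5, 69.7 and 43.1 (log2 fold change -3.27 ± 0.25 (SE), limma adjusted p = 8.51e-05). Rpl3 was at 52.2, 41.9, 43.5 and 59.2 against 12.4, 10.1, 10.6 and 17.4 (log2 fold change -1.90 ± 0.26 (SE), limma adjusted p = 0.00247). Rps2 was low in AAV animals 1 to 3 and at the KO level in animal 4, with 1614.5, 1414, 1387 and 1510.2 against 212, 152, 262 and 1534 (log2 fold change -2.13 ± 0.58 (SE), limma adjusted p = 0.0262). Its call ended without any of KO animals 1 to 4 or AAV animals 1 or 2 (-2.16 to -1.74), and with edgeR and DESeq2. Ribosomal proteins have many processed pseudogenes, and reads that mapped to more than 1 location were not kept. Among the genes tested a near-identical copy was found for Rpl29 and Rps2, and none for Rpl30 and Rpl3. Copies outside the genes tested were not looked at, so that these 4 values are uncertain. Of 37 proteasome subunits none was called (8 higher and 3 lower at an adjusted p under 0.05, beside 12.8% and 13.4% of all genes). The most abundant of them, Psmd8 and Psmc3, had log2 fold changes of -0.27 (limma adjusted p = 0.155) and 0.23 (limma adjusted p = 0.122).

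Of the stress and signal-response lists, that of immediate early genes held 3 calls and the others 1 or 0, beside 5.43% of all genes called higher. Among 17 immediate early genes 3 rose and 0 fell, with a median of 0.86. Over the alternatives 1 to 9 rose, with 1 without AAV animal 1 or after a GC trend was removed. Ier2 was at 185.5, 144, 142.5 and 156 against 463, 337, 207 and 559.8 (log2 fold change 1.23 ± 0.27 (SE), limma adjusted p = 0.0133) and the nuclear receptor Nr4a3 at 491, 445.5, 285 and 185 against 1379.6, 2192, 815 and 499 (log2 fold change 1.68 ± 0.44 (SE), limma adjusted p = 0.0231). Egr1, a zinc finger factor, was at 960.4, 71.8, 254.5 and 124 against 2087, 1333, 313 and 3234 (log2 fold change 2.58 ± 0.84 (SE), limma adjusted p = 0.0475). KO animal 1 lay within the AAV range of Egr1, whose call held in only 2 of the 8 fits without 1 animal, those without KO animal 1 or AAV animal 3, and was lost in the others (2.05 to 2.65). The call of Nr4a3 was lost without KO animal 3, KO animal 4 or AAV animal 1 (1.41 to 1.61).

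In the list of endoplasmic reticulum stress and ATF4 targets 1 of 21 was called, the stress factor Nupr1 at 125, 107, 134 and 95.5 against 263, 232, 151 and 317.5 (log2 fold change 1.02 ± 0.23 (SE), limma adjusted p = 0.0134), which lost its call without KO animal 2, KO animal 4, AAV animal 1 or AAV animal 4 (0.87 to 0.99). Of 14 heat shock proteins 1 rose, the muscle chaperone Hspb7, at 12671, 14937, 7413 and 4816 against 38667, 38432, 13253 and 66765 (log2 fold change 1.90 ± 0.48 (SE), limma adjusted p = 0.0204). AAV animal 3 lay within the KO range of Hspb7, and the call was lost without KO animal 4 or AAV animal 1 (1.60 and 1.84). Rsad2, the antiviral protein viperin, was the one of 20 interferon and antigen presentation genes to rise, from 48.3, 34.2, 41.3 and 48.6 to 132, 284, 146 and 82.6 (log2 fold change 1.75 ± 0.33 (SE), limma adjusted p = 0.00765). The list's median was 0.52 and 18 of its members (90%) had a positive log2 fold change, beside 52.7% of all genes. None of 16 circadian clock genes was called. Of these 2 (12.5%) were lower at an adjusted p under 0.05, beside 13.4% of all genes. A negative log2 fold change was found for 14 (median -0.27), and for 7049 of all 14894 genes. Examples were log2 fold changes of -0.25 for Tef (limma adjusted p = 0.135) and 0.069 for Nr1d1 (limma adjusted p = 0.836).

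**Figure D4:**
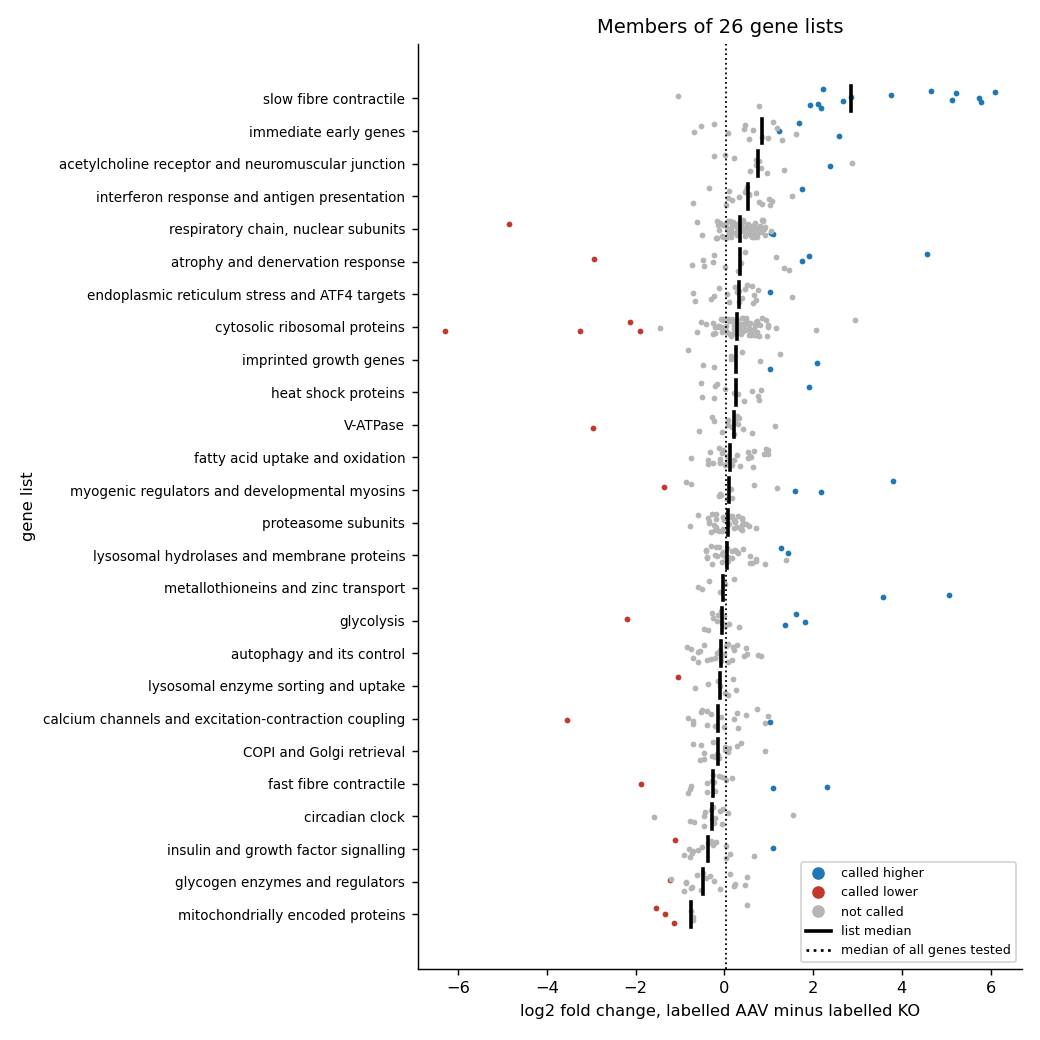
Log2 fold change, libraries labelled AAV minus those labelled KO, of each tested member of 26 gene lists, ordered by the list's median (black bar), with members called higher in blue, lower in red and not called in grey. The slow-fibre list stands at the top with a median of 2.85, and the dotted line marks the median of all genes tested, 0.04.

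Several of the sharpest changes involved a gene and its near-identical copy. Of 1315 called genes that could be searched, 121 had a copy among the genes tested, matching over 50% or more of the length with 90% or more of the bases identical, and 6 such pairs were called in opposite directions. Genes that were not called were not searched, so that these counts have no share over all genes beside them. Whether copies are more frequent among called genes was not tested. Ndufs5, an accessory subunit of complex I (ENSMUSG00000028648, chr4:123712710-123718202, - strand), fell from 427, 475, 473 and 470.4 normalized counts to 15.2, 13.1, 11.8 and 21.1 (log2 fold change -4.86 ± 0.20 (SE), limma adjusted p = 1.53e-06). Its processed pseudogene BC002163 (ENSMUSG00000081824, chr16:42955631-42955949, + strand) rose from 73.4, 59.9, 66.3 and 50.4 to 1092, 874, 890.5 and 782 (log2 fold change 3.84 ± 0.16 (SE), limma adjusted p = 1.53e-06). Both moved evenly in all animals, and the libraries labelled WT held 3.2 to 14.6 of Ndufs5 and 719 to 1283 of BC002163. The sum of the pair was 500.5, 534.5, 539.5 and 521 under the KO label and 1107, 887, 902 and 803 under the AAV label. The proton pump subunit Atp6v0c, the only one of 17 V-ATPase genes called, fell from 345, 425, 393 and 454.5 to 27.6, 38.3, 31.9 and 194 (log2 fold change -2.96 ± 0.52 (SE), limma adjusted p = 0.00608), with AAV animal 4 far above its group. Its copy Gm15487 went from 3.9, 5.1, 1.1 and 2.7 to 147.5, 243, 257.5 and 94.5 (log2 fold change 5.48 ± 0.42 (SE), limma adjusted p = 9.04e-05), and their sum from 349, 430.1, 394 and 457 to 175, 281, 289 and 288.

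The first 2 pairs are shown to let the copies be compared. Each line is a stretch of 150 bases of coding sequence from GENCODE M21 transcripts and the matching stretch of the pseudogene, with every base at which the members of a pair differ in capitals. The stretch covers bases 18 to 167 of the coding sequence of Ndufs5 and bases 36 to 185 of that of Atp6v0c.
Ndufs5: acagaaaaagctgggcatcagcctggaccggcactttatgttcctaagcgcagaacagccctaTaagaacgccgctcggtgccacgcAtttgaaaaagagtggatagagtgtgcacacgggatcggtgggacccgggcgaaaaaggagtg
BC002163: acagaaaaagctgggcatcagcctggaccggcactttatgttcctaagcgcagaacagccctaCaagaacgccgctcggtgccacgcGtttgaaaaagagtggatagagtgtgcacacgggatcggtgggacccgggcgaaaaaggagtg
Atp6v0c: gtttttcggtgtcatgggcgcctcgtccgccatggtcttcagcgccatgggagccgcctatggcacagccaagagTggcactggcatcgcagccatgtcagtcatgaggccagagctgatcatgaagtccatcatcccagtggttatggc
Gm15487: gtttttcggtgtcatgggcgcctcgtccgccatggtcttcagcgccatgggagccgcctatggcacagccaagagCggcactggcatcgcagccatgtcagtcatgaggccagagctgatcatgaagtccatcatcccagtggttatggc
Ndufs5 and BC002163 differ at 2 of the 318 coding bases and Atp6v0c and Gm15487 at 1 of 465. Reads were kept only where they mapped to a single location, so that a read without one of these bases, or without sequence outside the match, could count for neither member.

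Tagap1 and Tagap, a pair of GTPase-activating genes on chromosome 17 that match at 99.02% over 2152 bases, behaved likewise. Tagap1 fell from 389, 388, 473 and 369 to 16.5, 28.2, 29.5 and 147 (log2 fold change -3.37 ± 0.53 (SE), limma adjusted p = 0.00449), and Tagap was at 0, 0.9, 4.4 and 0.9 against 19.3, 27.2, 20.1 and 16.5 (log2 fold change 3.37 ± 0.52 (SE), limma adjusted p = 0.00427). The sum of the pair was nevertheless lower in each library labelled AAV, at 389, 389, 477.5 and 369.6 against 35.8, 55.4, 49.6 and 163. Among the genes of lowest adjusted p were also 3 processed pseudogenes. Gm15920 rose from 11.6, 15.4, 9.8 and 5.3 to 1353, 1510.2, 1655 and 624 (log2 fold change 6.79 ± 0.36 (SE), limma adjusted p = 8.24e-06) and Gm9825 from 1, 3.4, 2.2 and 0.9 to 192, 216.5, 239 and 101 (log2 fold change 6.06 ± 0.38 (SE), limma adjusted p = 3.47e-05). Gm8199 fell from 123, 115, 225 and 255.5 to 1.4, 1, 1.2 and 2.8 (log2 fold change -6.08 ± 0.36 (SE), limma adjusted p = 1.88e-05). All values of genes with such copies are uncertain as levels of the gene itself.

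**Figure D5:**
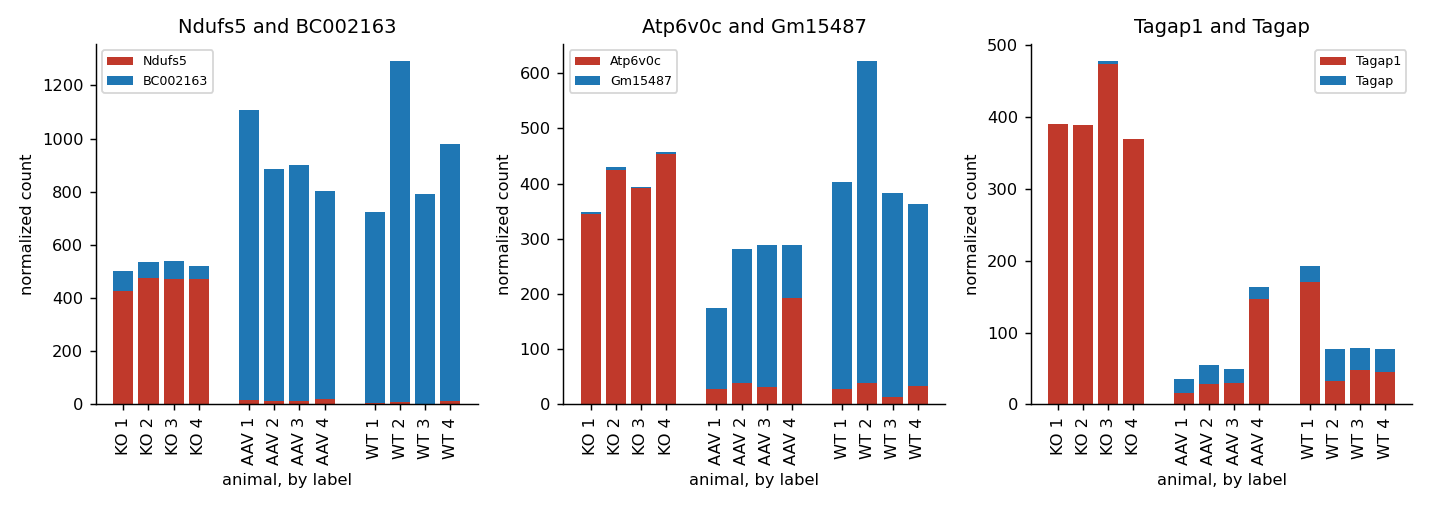
Normalized counts of 3 gene pairs in each animal, stacked so that the full bar is the sum of the pair (red, the member called lower in the libraries labelled AAV, and blue, its copy). Under the KO label the bars are mostly red. Under the AAV label they are mostly blue in the left pair and in AAV animals 1 to 3 of the middle pair, whereas AAV animal 4 of the middle pair is mostly red.

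Markers of other cells were compared beside these results. Of 13 macrophage markers 2 rose, Trem2 from 1, 0.9, 3.3 and 1.8 to 44.1, 22.1, 8.3 and 123 (log2 fold change 3.69 ± 0.71 (SE), limma adjusted p = 0.0081) and Lgals3, galectin-3, from 80.2, 67.6, 112 and 91.1 to 701.5, 288, 166.5 and 2392 (log2 fold change 2.61 ± 0.67 (SE), limma adjusted p = 0.0205). Lgals3 is made by muscle and other cells too, and lost its call without KO animal 1, 2 or 4 or AAV animal 1 (2.48 to 2.64). Lyz2 and C1qa, the other leading members, were at 0.43 (limma adjusted p = 0.483, -0.053 without AAV animal 4) and 1.21 (limma adjusted p = 0.0636). The median of the list was 0.86 (0.45 without AAV animal 4 and 1.23 without AAV animal 3). Over the alternatives 1 to 6 members rose, beside 5.43% of all genes in the fit itself. The summed counts of the list were 1049 to 1852 under the KO label and 3024, 2061, 1222 and 7578 in AAV animals 1 to 4, an order shared with Mt2, Timp1, Chrnd and Myh3. The part of these cells in those results was not tested.

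Alpha globins of red cells rose, Hba-a1 from 106, 60.7, 18.5 and 202.5 to 303, 579, 287 and 207 (log2 fold change 2.16 ± 0.61 (SE), limma adjusted p = 0.0296) and Hba-a2 from 86, 48.7, 13.1 and 125 to 193, 333, 233 and 124 (log2 fold change 1.99 ± 0.60 (SE), limma adjusted p = 0.0351), with AAV animal 2 highest. The 2 genes are near-identical copies, and both lost their calls without KO animal 1 or 2 or AAV animal 1 or 2 (1.88 to 2.36 and 1.76 to 2.23) and after a GC trend was removed. The red cell enzyme Alas2 was not called (log2 fold change 1.26, limma adjusted p = 0.238). The summed erythrocyte counts were 35.9 to 387 under the KO label and 363 to 1028 under the AAV label, and their part in the slow-fibre genes, which were also highest in AAV animal 2, was not tested.

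Of 5 tendon markers 1 rose, the transcription factor Scx, at 62.8, 42.8, 56.6 and 75.2 against 296, 125, 112 and 272 (log2 fold change 1.64 ± 0.34 (SE), limma adjusted p = 0.0101), while Thbs4 and Fmod had log2 fold changes of 0.12 and 0.042. No member was called among markers of fibroblasts and matrix (15 tested; Dcn, Col1a2 and Col3a1 at -0.12, 0.36 and 0.054), adipocytes (10; Plin4, Scd1 and Cfd at 0.25, -0.59 and 0.28, with Cfd called higher, at 1.21, without KO animal 3) or smooth muscle and pericytes (7; Rgs5, Acta2 and Myh11 at -0.62, -0.36 and -0.34). The same held for Schwann cells and nerve (8; Mbp and Prx at 0.27 and -0.28) and for neutrophils (4; Csf3r, Mmp9 and S100a9 at 0.54, 0.14 and 0.32). Among 12 endothelial markers 1 fell, Vwf (log2 fold change -1.06, limma adjusted p = 0.00682, not called without KO animal 3, AAV animal 1 or AAV animal 4, at -0.97 to -0.96), with Flt1, Pecam1 and Cdh5 at 0.29, -0.035 and -0.36. KO animal 3 held the most adipocyte RNA, with a summed count of 23135 against 7657 to 10107 in the other libraries labelled KO. Of the 9 lymphocyte markers none was tested, since 8 were not in the table and Cd3e was below the filter on low values.

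Liver transcripts were near 0, with Alb at 0.9 to 9.8 normalized counts under the KO label and 1.4 to 25.7 under the AAV label, and Apoa1 at 0.9 to 5.1 and 0 to 11.9. Cyp2e1, a liver enzyme that fat also makes, was at 74.4 to 1073.5 and 56.9 to 180.2, with the highest value in KO animal 3. Among skeletal muscle fibre markers none of 10 was called, and Acta1 and Ckm, muscle creatine kinase, had log2 fold changes of -0.37 and -0.38 (limma adjusted p = 0.386 and 0.415). The summed counts of this list were 4867950 to 5716140 under the KO label and 3213690 to 5230570 under the AAV label, lowest in AAV animal 4.

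The animals of the AAV group did not take equal part in the changes. Among the 809 genes that rose, AAV animal 4 was the highest of its group for 390 (48.2%), AAV animal 1 for 225, AAV animal 2 for 140 and AAV animal 3 for 54. AAV animal 3 was the lowest for 501 (61.9%). Among the 529 genes that fell, AAV animal 4 was the lowest of its group for 280 (52.9%) and AAV animal 3 the highest for 267 (50.5%). AAV animal 3 was thus the nearest to the libraries labelled KO in both directions and AAV animal 4 the farthest, although AAV animal 4 was the one with Gaa counts close to those libraries. Without AAV animal 3 the calls numbered 1176 higher and 790 lower, and without AAV animal 4 they numbered 631 and 400.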

How the data were processed

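Quadriceps RNA was sequenced from 12 mice, 1 library each, in 3 groups of 4 taken from the sample labels, which number separate animals. Reads under 20 bases after trimming were dropped (Trim Galore 0.4.1 and FastQC 0.11.2 appear in the submitters' processing notes), and the rest were mapped with STAR to mouse GRCm38 and kept where they had a single location. They were counted per gene with HTSeq 0.6.1, and a gene was listed if some library gave it 10 reads or more. The authors deposited the signal values used here, gene counts divided by DESeq2 (1.16.1) size factors, in 2 tables. The authors also deposited their own comparisons as log2 fold changes with a standard error, a test score and p-values, none of which was used in any step. The authors' log2 values were likewise neither printed nor compared. No column of per-sample values was left unmapped.

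Log2(value + 1) was fitted with limma 3.58.1 (trend, Benjamini-Hochberg adjustment) in R 4.3.3 on the 8 libraries, without covariates, over the 14894 genes that reached 10 in 1 or more of them. Since the values are normalized, count tests served as alternatives. Dividing by the step of 1 read recovered whole reads for 100% of values within 0.01 in each library (in AAV animal 2 the step was 1.01), which also gave the library totals. edgeR 4.0.16 and DESeq2 1.42.0 were run on these. Further alternatives were scaling to total reads, TMM, a pseudocount of 0.1, no filter, a mean of at least 50, all 12 libraries in 1 fit, a block on the replicate number, removal of a GC trend and leaving out each animal. Coordinates and lengths came from GENCODE M21 (GRCm38), promoters from RefSeq (GRCm38.p6), and copies from BLAST 2.17.0. The strandedness of the counting was not given in the sources used here, so that overlapping and antisense genes cannot be told apart.

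The comparison, the gene lists and the tests were chosen with earlier results of these data known. Genes were named by a rule: Gaa, the 12 largest rises and falls among protein-coding genes whose mean value was 50 or more and whose groups did not overlap, the 8 lowest adjusted p, up to 4 called members of each of 26 lists (or the 2 most abundant where none was called), and the 3 most abundant of each of 11 marker lists. This named 112 genes that are reported. Another 37, chosen after their values were seen, are Agrn, Akt2, Ankrd2, Atp2a2, Chrnb1, Csrp3, Ctsa, Ctsb, Dok7, Fbxo32, Gm15487, Gsk3b, Gyg, Gys1, Igf1, Igf2r, Insr, Irs1, Lamp1, Lamp2, Mtf1, Mtor, Myh7b, Myl3, Myoz2, Pdpk1, Phka1, Phkb, Pln, Pygm, Slc2a4, Sln, Tagap, Tpm3, Trem2, Trim63 and Vwf. The libraries compared held 22122233 to 40846896 reads, and the spread between animals in each fit includes their counting error.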

Additional observations from a re-analysis of the deposited data

Results flagged for a closer look

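In 22 of 301 groups of 4 values checked, 1 animal's gap to its nearest neighbour made up more of the group's range than Dixon's 95% limit for 4 values allows, which chance passes in about 1 in 20 groups. AAV animal 4 stood apart most often. It was far above the other 3 animals of its group for Gaa (gap 0.952 of the range), Atp6v0c (0.936), Map1lc3a (0.951), Rps2 (0.92), Tagap1 (0.9), Col3a1 (0.849) and Apoa1 (0.831). For Gaa, Atp6v0c, Rps2 and Tagap1 this put it nearer to the libraries labelled KO than its group was, and for Map1lc3a farther from them. AAV animal 3 stood above its group for Sort1 (0.849) and Phka1 (0.931), both nearer to the KO label, and AAV animal 2 for Pdk4 (0.846) and Atp2a2 (0.845).

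KO animal 3 was far above its group in the fat genes Scd1 (0.91) and Cfd (0.912) and in Cyp2e1 (0.895), and it stood apart for Pdpk1 (0.845). KO animal 1 stood apart for Rpl30 (0.876), Myh8 (0.884) and Ndufs5 (0.911), where it was the highest, the highest and the lowest of its group. KO animal 4 stood apart for Pln (0.83) and Slc2a4 (0.861) and was the only library labelled KO with any Sprr1a (1, with 0.9 normalized counts). WT animal 2 was the single library labelled WT with high Gaa (0.99). Over all genes tested, 5.96% of the groups labelled KO and 5.87% of those labelled AAV passed the same limit, and AAV animal 4 was the one apart in 407 of the 874 genes of the AAV label.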

How the results depend on the processing

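Of 85 named genes that were called, 52 kept their call under each alternative that tested them (18, or 17 for Sprr1a, Rpl3, Tagap and Trem2, which the mean value of at least 50 left out), 33 lost it under 1 or more, and 0 changed sign. The number of genes called was 809 higher and 529 lower. A mean value of at least 50 left 444 and 343 of fewer genes tested, and without the fold threshold 1911 and 1999 passed. Scaling to total reads lowered the falls to 352. Leaving out 1 animal gave 431 to 1176 rises and 341 to 790 falls, and the difference in mean total reads, -8842419 reads in all, ran from -10901803 to -6696133. The log2 fold change of Gaa was -2.09 with edgeR, -2.08 with DESeq2 and -3.28 with all 12 libraries in 1 fit (adjusted p = 0.0604), none past the threshold, and -4.26 to -2.83 without 1 animal.

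The animals' numbers pair nothing: same-numbered animals of the 2 groups are different mice. Their deviations correlated at -0.067, 0.070, -0.181 and -0.146 over genes, and 1 of 4 correlated best with its own number. With a replicate block 583 genes rose and 420 fell, and Gaa was at -3.28 (limma adjusted p = 0.0268). Of the named genes Hk1, Cox5b, mt-Co1, Egr1 and Hba-a2 lost their call under the block.

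Besides Gaa, calls were lost with edgeR for Rps2, Egr1 and Csrp3 and with DESeq2 for Rps2 and Egr1. With all 12 libraries in 1 fit Dkk3, Hk1, Lgmn, mt-Nd2, mt-Co1, Chrnd, Cacng1, Myh8, Egr1 and Lgals3 lost theirs. Removing a GC trend ended those of Ppp1r3a, Hk1, Cox6a1, Cox5b, mt-Nd2, mt-Co1, Cacng1, Ier2, Egr1, Cdkn1c, Hba-a1 and Hba-a2. Scaling to total reads ended those of Tbc1d4, Sort1, mt-Co1 and Vwf, TMM those of Cox5b, Nupr1 and Cdkn1c, and a pseudocount of 0.1 or no filter that of Cox5b. Over the alternatives 0 to 8 nuclear respiratory subunits, 0 to 5 ribosomal proteins, 0 to 5 neuromuscular junction genes and 1 to 5 interferon genes rose, and 1 to 3 mitochondrially encoded genes fell. The causes were not tested.

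Only genes that were not called changed sign. Log2 fold changes with the other sign were 0.034 for Copa, 0.047 for Dcn, 0.13 for Pecam1, 0.14 for Lamp1 and 0.059 for Mtf1 with scaling to total reads, -0.027 and -0.017 for Nr1d1 and -0.81 and -0.79 for Cfd with edgeR and DESeq2, and -0.48 for Apoa1 with a pseudocount of 0.1. With the GC trend removed they were -0.16 for Nr1d1, -0.022 for Mmp9, 0.23 for Dcn, -0.012 for Col3a1, -0.17 for Apoa1, -0.062 for Fmod and 0.11 for Lamp2. Without 1 animal the values spanned -0.10 to 0.32 for Nr1d1, -0.053 to 0.79 for Lyz2, -0.19 to 0.40 for Mmp9, -0.28 to 0.12 for Dcn, -0.31 to 0.22 for Col3a1, -0.94 to 0.14 for Scd1, -0.29 to 1.21 for Cfd, -0.17 to 0.13 for Pecam1 and -0.018 to 0.55 for Mbp. They spanned -0.553 to 0.021 for Prx, -1.18 to 0.10 for Cyp2e1, -0.25 to 0.68 for Alb, -0.15 to 0.59 for Apoa1, -0.15 to 0.37 for Thbs4, -0.12 to 0.20 for Fmod and -0.10 to 0.040 for Lamp1.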
